A study of Mus musculus with 96 samples.

Results

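The genes described here encode the machinery that separates chromosomes in mitosis: the spindle, the kinetochore and the condensin complex. They were listed by name and by no cut on their values, although earlier results of these data were known. All 54 listed members were found among the 15895 genes of the expression table. By role, 6 belong to the spindle checkpoint (Bub1, Bub1b, Bub3, Mad1l1, Mad2l1 and Ttk), 4 form the chromosomal passenger complex (Aurkb, Incenp, Birc5 and Cdca8), and 11 act at the centromere and kinetochore (Cenpa, Cenpe, Cenpf, Cenpk, Cenpn, Ndc80, Nuf2, Spc24, Spc25, Sgol1 and Knstrn). A further 9 are kinesins (Kif2c, Kif4, Kif11, Kif15, Kif20a, Kif20b, Kif22, Kif23 and Kif18a), and 11 are spindle assembly factors and mitotic kinases (Aurka, Tpx2, Bora, Tacc3, Nusap1, Hmmr, Aspm, Ckap2, Nek2, Melk and Pbk). The last groups were 6 cytokinesis genes (Prc1, Ect2, Racgap1, Anln, Cit and Cep55) and 7 genes of condensin and sister chromatids (Top2a, Smc2, Smc4, Ncapd2, Ncapg, Ncaph and Pttg1).

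In mitosis, kinetochores built on centromeric chromatin bind spindle microtubules, the spindle checkpoint holds back anaphase until every chromosome is attached, and the chromosomal passenger complex corrects faulty attachments. Condensin and topoisomerase II compact and disentangle the chromosomes beforehand, and the contractile ring and central spindle divide the cell afterwards. Genes of this machinery are known for low transcript levels in resting fibroblasts and for a peak late in the cell cycle, and many of their promoters carry a cell cycle homology region (CHR) together with CCAAT boxes.

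RNA-seq was carried out on fibroblasts grown directly from CF-1 mouse embryos at day 13 (primary MEFs, not an immortal line). The cells were starved for 36 h in 0.5% fetal calf serum, and serum was then raised to 20%. Samples formed a pair of time courses named Cycle 1 (from -1 h to 38 h around serum addition) and Cycle 2 (32 libraries, from -1 h to 27 h). The labels list 64 libraries for Cycle 1, of which 63 were used, and its 12.5 h library was not analysed here. Cycle 1 also had libraries between whole hours, from 1.5 h to 24.5 h. Windows up to 27 h, with their means and overlaps, used whole hours only unless stated otherwise. All groups were these same cells and differed only in Cycle and in hours after serum, and the starved group of a Cycle was its -1 h and 0 h libraries. Each hour of a Cycle was a single library of bulk cells, and no source used here says how many embryos or cultures were behind it, so the p-values below measure only the spread between these libraries. With both Cycles in the fit, that spread after serum is the difference between the Cycles at each hour, apart from a constant shift. A change of unlike size in the Cycles therefore has a larger SE there. In bulk RNA, more cells in a state and more RNA per cell in that state cannot be told apart.

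Recovered depth lay between 5067432 and 14500278 reads per library, and its median was close in both Cycles (10967546 and 10779354 reads). The lowest value of any member in any library was 8.35, on a scale normalized to 10000000 reads per library. All 8 fibroblast markers were abundant, and their summed value was 505536 to 531590 in the starved libraries of Cycle 1 and 384474 to 406855 in those of Cycle 2. The library of Cycle 1 at 24.5 h stood apart from its neighbours in time. Over all genes its median distance from the mean of the libraries before and after it was 0.461 on the log2 scale, against 0.088 to 0.325 in the other 90 libraries with a neighbour on each side. The members in it differed from their neighbours by between -2.40 (Cenpk) and 0.55 (Kif22), and changes after 27 h, which rest on it, are given with and without it.

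The promoters of the members are shown first, because a shared sequence element is the feature for which this group of genes is best known. RefSeq promoter sequences (build GRCm38.p6) were matched for 46 of the 54 members, 1 of them (Sgol1) under its current symbol. Below, each sequence runs from 110 bases before the annotated start to 30 bases after it, read 5′ to 3′ on the strand of the gene. Capitals mark the motifs searched, which were TTTGAA and TTCGAA (forms of the CHR) and CCAAT, on both strands, so that TTCAAA and ATTGG appear as well, and the GG that opens the Aspm sequence is the end of an ATTGG that starts outside the window. The first 7 promoters were chosen because each holds both kinds of motif in a well studied mitotic gene, and Ncaph and Birc5 because they hold neither in this window. The positions are Bub1 chr2:127831830-127831969 (minus strand), Ttk chr9:83834579-83834718 (plus strand), Top2a chr11:99024160-99024299 (minus strand), Aspm chr1:139454663-139454802 (plus strand), Cenpf chr1:189688057-189688196 (minus strand), Cenpa chr5:30666776-30666915 (plus strand), Hmmr chr11:40733408-40733547 (minus strand), Ncaph chr2:127133925-127134064 (minus strand) and Birc5 chr11:117849127-117849266 (plus strand).
Bub1: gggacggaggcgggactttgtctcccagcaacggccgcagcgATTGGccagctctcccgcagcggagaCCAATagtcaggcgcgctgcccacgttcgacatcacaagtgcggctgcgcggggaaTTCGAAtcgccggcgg
Ttk: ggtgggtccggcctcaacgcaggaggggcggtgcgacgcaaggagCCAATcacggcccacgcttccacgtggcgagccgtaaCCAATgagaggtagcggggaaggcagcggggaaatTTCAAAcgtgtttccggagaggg
Top2a: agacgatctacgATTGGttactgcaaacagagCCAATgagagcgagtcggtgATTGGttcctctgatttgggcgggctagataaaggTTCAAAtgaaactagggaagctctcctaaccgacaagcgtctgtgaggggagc
Aspm: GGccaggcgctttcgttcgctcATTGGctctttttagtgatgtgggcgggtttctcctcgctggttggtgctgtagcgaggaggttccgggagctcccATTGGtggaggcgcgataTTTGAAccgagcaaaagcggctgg
Cenpf: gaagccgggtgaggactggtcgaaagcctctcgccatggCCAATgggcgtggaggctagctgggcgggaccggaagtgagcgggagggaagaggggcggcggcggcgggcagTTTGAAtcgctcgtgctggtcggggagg
Cenpa: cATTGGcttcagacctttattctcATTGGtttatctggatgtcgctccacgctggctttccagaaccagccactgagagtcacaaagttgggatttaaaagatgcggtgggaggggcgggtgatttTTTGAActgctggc
Hmmr: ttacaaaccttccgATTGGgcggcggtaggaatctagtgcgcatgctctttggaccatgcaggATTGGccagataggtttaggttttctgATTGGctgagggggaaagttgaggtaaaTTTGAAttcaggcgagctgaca
Ncaph: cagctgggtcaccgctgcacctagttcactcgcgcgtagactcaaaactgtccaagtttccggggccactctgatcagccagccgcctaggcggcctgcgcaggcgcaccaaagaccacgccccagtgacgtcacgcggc
Birc5: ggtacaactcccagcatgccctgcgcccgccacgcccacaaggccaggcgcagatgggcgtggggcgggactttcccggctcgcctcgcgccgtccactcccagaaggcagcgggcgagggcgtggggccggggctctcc

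Of the 53 promoters of the matched members, 33 (62.3%) held TTTGAA on either strand, against 17.9% of all 32851 promoters of 300 bases in the same table. Within 50 bases of the start the share was 54.7% for the members and 4.94% for all promoters. TTCGAA, the form found in Bub1, was in 7.55% of the promoters of the members and in 1.56% of all. A CCAAT box was present in 62.3% and 37.4%, at least 2 of them in 35.8% and 11.7%, and a CHR form together with CCAAT in 52.8% and 7.52%. The half-rise time, defined below, had nearly the same median in members with TTTGAA (13.2 h in Cycle 1 over 29 genes and 16.6 h in Cycle 2 over 28) as in members without it (13.1 h over 17 genes and 16.9 h over 16). A match is a run of letters, and occupancy by a factor was not measured.

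The first comparison asked whether the members stood at the same level in starved cells of both Cycles. In starved cells 53 of the 54 members were higher in Cycle 2 than in Cycle 1 (limma on log2(value + 1), Benjamini-Hochberg adjusted p under 0.05), against 11.0% of all genes. The ratio of the starved means had a median of 3.08 over the members and ran from 1.23 to 4.02. For all 54 members both starved libraries of Cycle 2 lay above both of Cycle 1, as they did for 29.5% of all genes. The median log2 difference was 1.62 over the members and -0.08 over all genes. This comparison, and the others made directly between Cycles, were added after the levels had been seen. Each Cycle is a single time course, so in every test between Cycles its starved libraries or neighbouring hours stand in for replicates. The p-values of such tests do not measure how far repeated time courses would differ.

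Top2a, the topoisomerase that untangles sister chromatids, stood at 1324 and 1305 in the starved libraries of Cycle 1 and at 4485 and 4166 in those of Cycle 2. Bub1, a checkpoint kinase of the kinetochore, stood at 224 and 229.8 against 937 and 856. Anln encodes anillin, an actin-binding scaffold of the cleavage furrow, and stood at 615 and 633 against 2271 and 2335. None of these values overlapped between the Cycles, and the log2 differences were 1.72 ± 0.24 for Top2a (SE, adjusted p 5.93e-07), 1.98 ± 0.29 for Bub1 (adjusted p 1.16e-06) and 1.88 ± 0.27 for Anln (adjusted p 1.04e-06). Mad1l1, which recruits Mad2 to unattached kinetochores, was the member that missed the threshold, with 335 and 258 against 349 and 381 (log2 difference 0.31 ± 0.24, adjusted p 0.376).

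Other gene lists were compared in the same starved libraries. Of 31 DNA replication genes, 28 were higher in Cycle 2, where 11.0% of all genes were higher and 11.1% lower. Markers of other cell types differed too: 3 of 5 epithelial markers were lower in Cycle 2 (summed value 142 to 146 against 272 to 284, with Krt5 at 0 in a library of Cycle 2), and 3 of 3 measured blood cell markers were higher (281 to 321 against 156 to 205). Of 4 muscle markers 1 was higher and 2 were lower. The muscle sums, 1661 to 1670 against 635 to 721, were mostly Des (starved means 1630 in Cycle 2 and 527 in Cycle 1). Myog, Myod1 and Ckm had lower starved means in Cycle 2 (22.2, 5.88 and 2.67) than in Cycle 1 (105, 21.1 and 24.8). Of 4 endothelial markers 0 passed the limma test (1 higher and 1 lower at an unadjusted p under 0.05). The endothelial sums were 176 to 224 against 236 to 272. The part of these lists in the difference between Cycles was not tested.

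**Figure D1:**
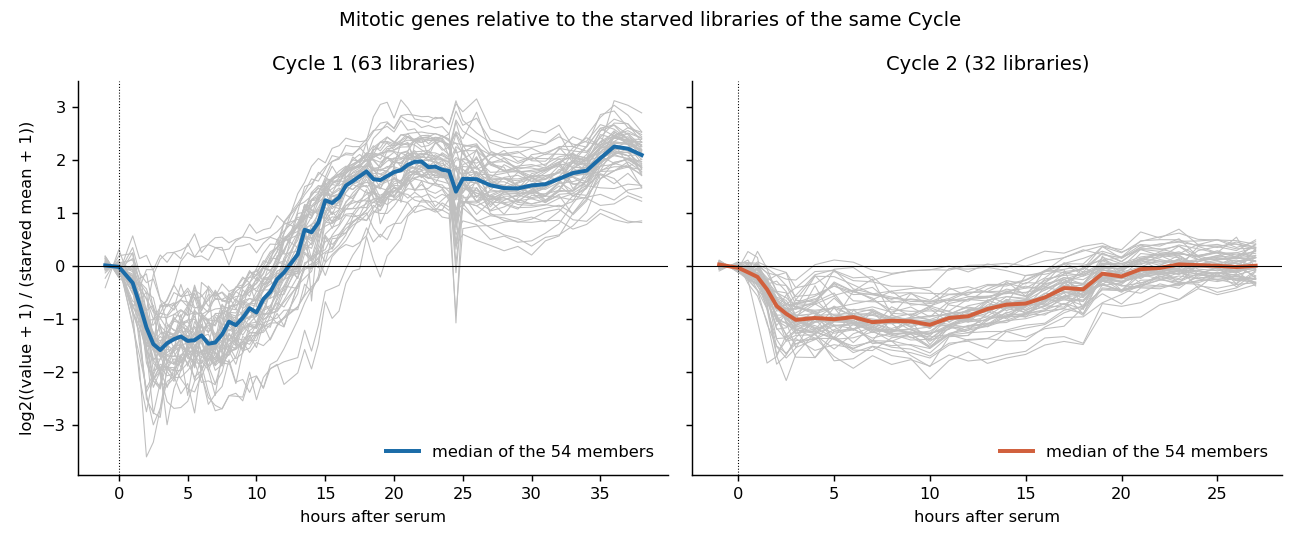
All 54 members relative to the starved mean of their own Cycle, on the log2 scale, against hours after serum, with a grey line for each member and a coloured line for the median. Both Cycles fell at first. Cycle 1 then rose well above its starved level, by a median of 3.04-fold at 24 to 27 h, while Cycle 2 returned to its own. The dip of single lines late in Cycle 1 is the 24.5 h library, and Cit also dips in its libraries at 5.5 h and 14 h.

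After serum the transcripts first fell. At 4 to 6 h, 35 of 54 members were lower than in starved cells with both Cycles in the fit, where 40.4% of all genes were lower. Within Cycle 1 alone 49 were lower (37.9% of all genes), and within Cycle 2 alone 48 (31.5%). The median log2 change of the members at 4 to 6 h was -1.17, against -0.26 over all genes. At 7 to 10 h, 32 members were below the starved level (36.7% of all genes), with 43 in Cycle 1 (34.6%) and 50 in Cycle 2 (25.9%). The level at 7 to 10 h was a median of 0.464 of the starved level in Cycle 1 and 0.479 in Cycle 2, so the members fell to a like share of unlike starting levels. Fits within a Cycle use neighbouring hours of 1 time course in place of replicates.

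A few members did not take part in this fall. Bub3, the partner that brings Bub1 and BubR1 to the kinetochore, was higher at 7 to 10 h than in starved cells of Cycle 1 (log2 change 0.50, adjusted p 0.00036), where its starved libraries held 803 and 796 and those at 7 to 10 h held 1159.8, 1084, 1170.4 and 1114. Bora, a cofactor in the activation of the kinase Plk1, was higher there too (0.46, adjusted p 0.0327). In Cycle 2 Bora fell at these hours (-0.48, adjusted p 0.0119), and Bub3 gave -0.09 (adjusted p 0.36), with 1285 and 1187 in starved cells and 1173, 1125, 1160.2 and 1179.9 at 7 to 10 h.

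The difference between the Cycles lasted through this low phase. At 7 to 10 h, 51 of 54 members were higher in Cycle 2 than in Cycle 1, against 7.00% of all genes. The same number had no overlap between their 4 whole-hour libraries of each Cycle (10.3% of all genes). The 3 others were Bub3 (log2 difference 0.03, adjusted p 0.835), Mad1l1 (-0.10, adjusted p 0.775) and Bora (0.16, adjusted p 0.546). DNA replication genes no longer showed such a shift at these hours, with 5 of 31 higher and 4 lower in Cycle 2 (7.00% and 5.80% of all genes).

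The members then rose in both Cycles. From 7 to 10 h to 19 to 23 h all 54 were higher with both Cycles in the fit, against 25.6% of all genes, and their median log2 change was 2.03 (0.02 over all genes). All 54 were also higher within Cycle 1 (20.6% of all genes) and within Cycle 2 (19.4%). In each Cycle the 5 libraries at whole hours from 19 to 23 h lay above the 4 at whole hours from 7 to 10 h for every member. The same held for 20.3% of all genes in either Cycle. The rise was a median of 8.30-fold in Cycle 1, from 1.70 to 12.7, and of 1.98-fold in Cycle 2, from 1.31 to 2.54. Markers of other cell types moved in the same comparison, in which 22.2% of all genes were lower and 25.6% higher. At 19 to 23 h, 5 of 5 epithelial, 3 of 3 measured blood cell, 3 of 4 endothelial and 4 of 8 fibroblast markers were lower. Higher were 1 fibroblast and 1 of 4 muscle markers. The summed epithelial value was 274 to 504 at 7 to 10 h and 114 to 184 at 19 to 23 h in Cycle 1, and 178 to 207 and 98 to 119 in Cycle 2, where Epcam and Krt5 were at 0 in some libraries. Endothelial sums went from 139 to 176 down to 57 to 88 in Cycle 1 and from 133 to 192 down to 81 to 116 in Cycle 2. The part of these markers in the rise was not tested.

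The size of the rise differed between Cycles for nearly every member. In the test of that difference 53 of 54 rose less in Cycle 2, against 3.62% of all genes, with a median difference of -2.03 on the log2 scale (-0.02 over all genes). The levels reached were closer to each other than the levels left. At 19 to 23 h, 14 members were lower in Cycle 2 (8.71% of all genes), and at 24 to 27 h, 5 were lower (11.9%), which were Mad1l1, Birc5, Cenpa, Spc24 and Tacc3. The median log2 difference between Cycles was 1.63 at 7 to 10 h, -0.37 at 19 to 23 h and -0.13 at 24 to 27 h.

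**Figure D2:**
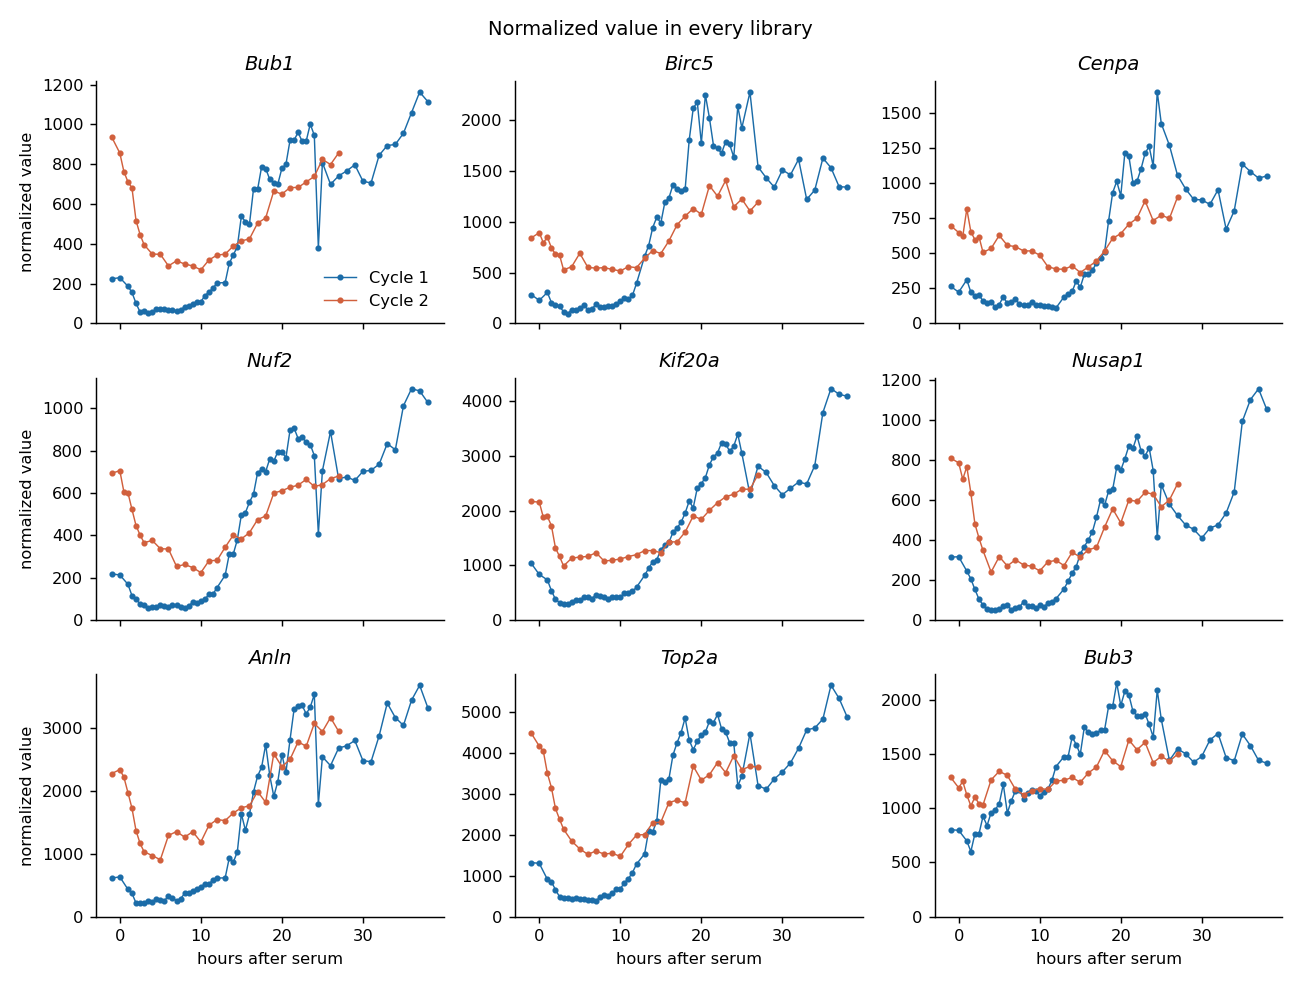
Normalized value of 9 members in every library against hours after serum, with points for single libraries of Cycle 1 and Cycle 2 joined by lines. In all 9 panels Cycle 2 starts above Cycle 1 and in 8 of them it stays above through 7 to 10 h, whereas the Bub3 values of the Cycles run together at those hours, and at 23 h Cycle 1 lies above Cycle 2 in all 9.

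Among the spindle checkpoint genes, Bub1 (mm9 chromosome 2, 127626858 to 127657601, minus strand) had the largest rise. Its libraries at 7, 8, 9 and 10 h of Cycle 1 held 62.8, 81.3, 96.8 and 109, and those at 19 to 23 h held 705, 779.5, 919, 960.4 and 917. In Cycle 2 the same hours held 314, 298, 289 and 269, and then 665, 649, 683, 683 and 711. Early values did not overlap between the Cycles and late ones did, and the pooled log2 rise was 2.25 ± 0.38 (adjusted p 1.03e-05). The rise in Cycle 2 was smaller by 2.08 ± 0.18 (adjusted p 1.24e-06). Bub3 had the smallest rise of the group, with a mean of 1132 ± 40.1 (SD, n = 4) at 7 to 10 h and 1929 ± 75.5 (n = 5) at 19 to 23 h of Cycle 1, and 1160 ± 24.5 and 1518 ± 106 in Cycle 2. It still passed the test (log2 change 0.58 ± 0.12, adjusted p 0.0002), as did Mad1l1 (0.73 ± 0.14, adjusted p 7.72e-05).

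In the chromosomal passenger complex, Birc5 (survivin; mm9 chromosome 11, 117710565 to 117717069, plus strand) held 186, 164, 173 and 216 at 7 to 10 h of Cycle 1 and 2118, 1774, 2022, 1722 and 1790.0 at 19 to 23 h. In Cycle 2 it went from 544, 548, 532 and 516 to 1131, 1075, 1356, 1252 and 1407. Here Cycle 2 ended below Cycle 1 with no overlap, with a log2 difference of -0.60 at 19 to 23 h (adjusted p 0.0367). All 4 genes of the complex were lower in Cycle 2 at those hours. Aurkb, its kinase, had the largest pooled rise of the complex (2.33 ± 0.37, adjusted p 5e-06), and Incenp, the scaffold that activates the kinase, the smallest (1.66 ± 0.31, adjusted p 4.02e-05).

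At the centromere and kinetochore the largest rise was that of Nuf2, a subunit of the NDC80 complex that binds microtubule ends (mm9 chromosome 1, 171428065 to 171461595, minus strand). It held 69.2, 59.1, 85.4 and 90.9 at 7 to 10 h and 751, 794, 896, 858 and 841 at 19 to 23 h of Cycle 1. The values of Cycle 2 were 253, 263, 248 and 224, and then 600.2, 611, 627, 638 and 665. The late values of Cycle 2 lay below those of Cycle 1 without passing the test between Cycles (adjusted p 0.102), and the pooled rise was 2.39 ± 0.37 (adjusted p 3.06e-06). Cenpk, of the constitutive centromere network, rose least in the group (1.56 ± 0.30, adjusted p 5.81e-05), and the motor Cenpe rose by 2.04 ± 0.36 (adjusted p 2.13e-05). Cenpa, the histone H3 variant that marks centromeres, moved from a mean of 147 ± 20.9 to 1054 ± 143 in Cycle 1 and from 518 ± 24.8 to 717 ± 105 in Cycle 2 (n = 4 and 5).

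The kinesins rose together, and in each of the 9 the rise was smaller in Cycle 2. Kif2c, a motor that takes microtubule ends apart, held 78.7, 60.4, 78.9 and 87.2 at 7 to 10 h of Cycle 1 and 797, 926, 1074, 994 and 1038 at 19 to 23 h. In Cycle 2 it held 341, 321, 283 and 306 and then 559.7, 577, 741, 723 and 702. Its rise differed between Cycles by -2.58 ± 0.17 (adjusted p 7.62e-08), the largest such difference among the 54 members. Kif20a, which carries the passenger complex to the central spindle, had the smallest pooled rise of the kinesins (1.75 ± 0.28, adjusted p 5.86e-06), from a mean of 430 ± 22.0 to 2733 ± 468 in Cycle 1 and from 1130 ± 69.8 to 2030 ± 170 in Cycle 2.

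Of the spindle assembly genes, Nusap1, a microtubule-binding protein (mm9 chromosome 2, 119444034 to 119476980, plus strand), held 58.5, 92.4, 71.2 and 74.1 at 7 to 10 h of Cycle 1 and 655, 750.4, 872, 922 and 820.1 at 19 to 23 h. In Cycle 2 it held 302, 276, 269.6 and 246 and then 557, 487, 601, 594 and 639.5. At the early hours Cycle 2 lay above Cycle 1 and at the late hours below it, with no overlap at either, and the pooled rise was 2.25 ± 0.34 (adjusted p 2.13e-06). Tpx2, the activator of Aurora A on the spindle, rose by 1.82 ± 0.31 (adjusted p 1.01e-05). Bora rose least (0.86 ± 0.17, adjusted p 8.06e-05), from 154 ± 16.0 to 346 ± 56.4 in Cycle 1 and from 172 ± 12.1 to 253 ± 8.53 in Cycle 2.

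The cytokinesis genes were led by Ect2, the exchange factor that activates RhoA at the cell equator (mm9 chromosome 3, 26996144 to 27052800, minus strand). Its values were 62.8, 101, 109.8 and 129 at 7 to 10 h and 581, 779, 986, 1116 and 1023 at 19 to 23 h of Cycle 1. In Cycle 2 they were 406, 370.3, 343 and 347, and then 770.4, 764, 788, 882 and 872. The late values of the Cycles overlapped, and the pooled rise was 2.15 ± 0.35 (adjusted p 4.87e-06). Anln rose by 1.95 ± 0.33 (adjusted p 9.89e-06). Cit, the citron kinase, rose least (1.55 ± 0.36, adjusted p 0.000658) and was thinly covered, with 10.6 to 32.8 at 7 to 10 h of Cycle 1.

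Among the genes of condensin and sister chromatids, Top2a (mm9 chromosome 11, 98854257 to 98885503, minus strand) held 385, 531, 579 and 680.2 at 7 to 10 h of Cycle 1 and 4079, 4446, 4772, 4941 and 4507 at 19 to 23 h. In Cycle 2 it held 1608, 1531, 1552 and 1474 and then 3678, 3336, 3468, 3766 and 3520.0. The late values of Cycle 2 lay below those of Cycle 1 without passing the test between Cycles (adjusted p 0.106), and the pooled rise was 2.15 ± 0.34 (adjusted p 4.34e-06). Smc4, a core ATPase of condensin, rose least (1.48 ± 0.22, adjusted p 1.65e-06), and the difference between Cycles in its rise was also small for the list (-1.13 ± 0.18, adjusted p 0.000957). Its partner Smc2 gave a like picture, with a rise of 1.53 ± 0.30 (adjusted p 6.68e-05) and a difference of -1.20 ± 0.27 (adjusted p 0.0147).

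**Figure D3:**
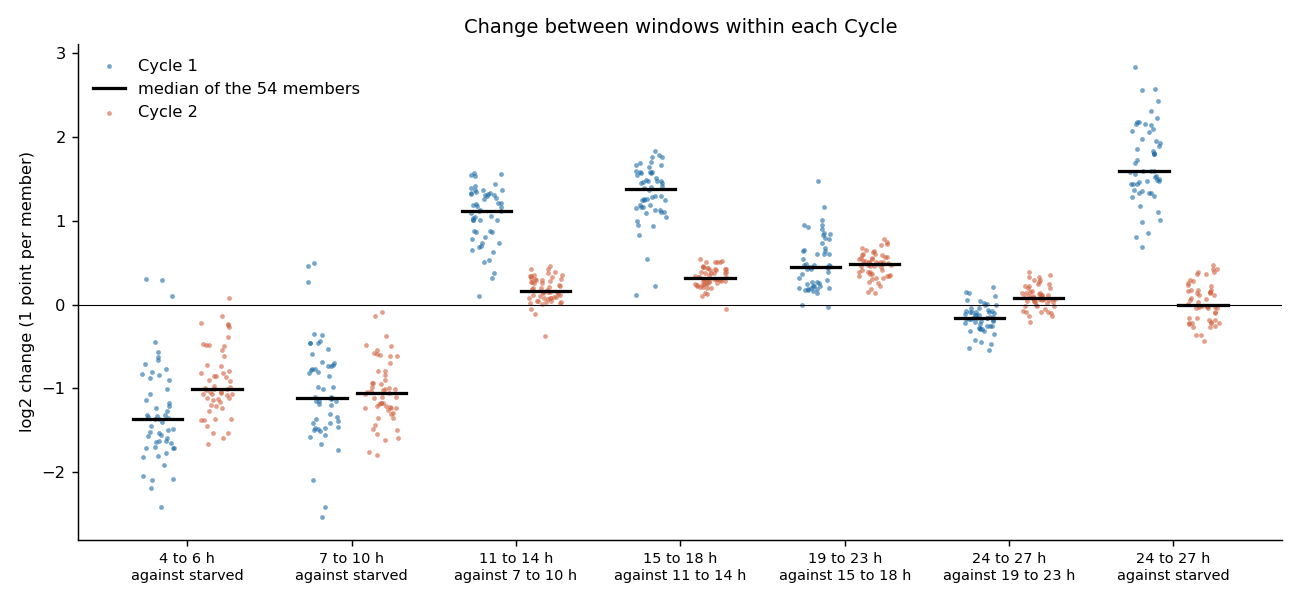
Log2 change between windows within each Cycle, with a point for each of the 54 members and a bar at their median, from fits within a Cycle. In Cycle 1 the rise was concentrated at 11 to 14 h and 15 to 18 h, with medians of 1.12 and 1.38, while in Cycle 2 the steps were 0.17, 0.32 and 0.48 from 11 to 14 h to 19 to 23 h.

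The hours of the rise were compared step by step. With both Cycles in the fit, 0 of 54 members passed the limma test from 7 to 10 h to 11 to 14 h (8.27% of all genes were higher), with 21 higher at an unadjusted p under 0.05 and 0 by edgeR. From 11 to 14 h to 15 to 18 h it was again 0 by limma (0.874% of all genes), with 42 at an unadjusted p under 0.05 and 1 by edgeR. From 15 to 18 h to 19 to 23 h it was 0 by limma (0.440%), with 11 unadjusted and 2 by edgeR. In Cycle 1 alone, 46 members were higher at 11 to 14 h than at 7 to 10 h (5.80% of all genes), 52 at 15 to 18 h than at 11 to 14 h (2.81%), and 3 at 19 to 23 h than at 15 to 18 h (0.315%). In Cycle 2 alone, where edgeR was not run, the same steps gave 5 members (4.64%), 0 members by limma (0% of all genes, with 36 members at an unadjusted p under 0.05) and 17 members (0.384%). In the fit with both Cycles, unlike steps of the Cycles count as spread, so its 0 calls do not show that the members stayed level.

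A half-rise time was taken for each member and Cycle, as the hour at which its smoothed log2 value crossed the midpoint between its lowest point at 4 to 14 h and its highest point at 15 to 27 h. All 54 members had a rise over 1 on the log2 scale in Cycle 1 and so a half-rise time, with a median of 13.1 h and a range from 11.1 h (Ncaph) to 16.8 h (Cenpa). In Cycle 2, 50 members had such a rise, with a median of 16.5 h and a range from 13.9 h (Smc2) to 19.1 h (Hmmr). Bub3, Mad1l1, Incenp and Bora were the members without it. All 50 were later in Cycle 2, by a median of 3.43 h and by 1.11 h (Cit) to 5.52 h (Kif18a). The delay depends on where the midpoint is taken: with the midpoint on the linear scale all 50 were still later in Cycle 2, but by a median of 1.85 h, from 0.017 h to 3.85 h. Without smoothing 50 of 51 were later. Without the 24.5 h library the median delay was 3.44 h, and no half-rise time of Cycle 1 moved by more than 0.512 h.

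The order of the members was much alike in the Cycles, with a Spearman rho of 0.787 and a Pearson r of 0.784 across the 50 genes, which share their libraries and are not independent replicates. Among the earliest in both were Ncaph, the kleisin subunit of condensin I, at 11.1 h and 14.5 h, and Smc2 at 11.1 h and 13.9 h. Cenpk, at 11.3 h and 14.3 h, and the kinase gene Melk, at 11.8 h and 14.1 h, were close to them. The other condensin genes came later, up to 13.4 h in Cycle 1 (Smc4) and 15.7 h in Cycle 2 (Ncapg). The latest members of Cycle 1 were Cenpa at 16.8 h and 18.7 h, the spindle pole gene Aspm at 16.0 h and 18.8 h, and Cenpf, of the outer kinetochore, at 15.1 h and 18.4 h. Pttg1, which encodes securin, the inhibitor of separase, came at 14.6 h and 18.6 h, later than the other genes of its group in both Cycles.

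By role, the median half-rise time in Cycle 1 was 12.1 h for the spindle checkpoint, 12.4 h for the passenger complex and for condensin and sister chromatids, 13.0 h for the kinetochore, 13.2 h for the kinesins, 13.6 h for cytokinesis and 13.8 h for spindle assembly. In Cycle 2 the condensin group was earliest (15.6 h), and the kinesins and spindle assembly genes were latest (17.2 h each). The spindle checkpoint, earliest in Cycle 1, stood at 17.0 h in Cycle 2, over the 4 of its 6 genes with a half-rise time there. Ranges within the groups overlapped widely, for example from 11.3 h to 16.8 h at the kinetochore and from 11.8 h to 16.0 h in spindle assembly of Cycle 1, and no test was made between the groups. Each half-rise time comes from a single time course, so it carries no replicate error.

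**Figure D4:**
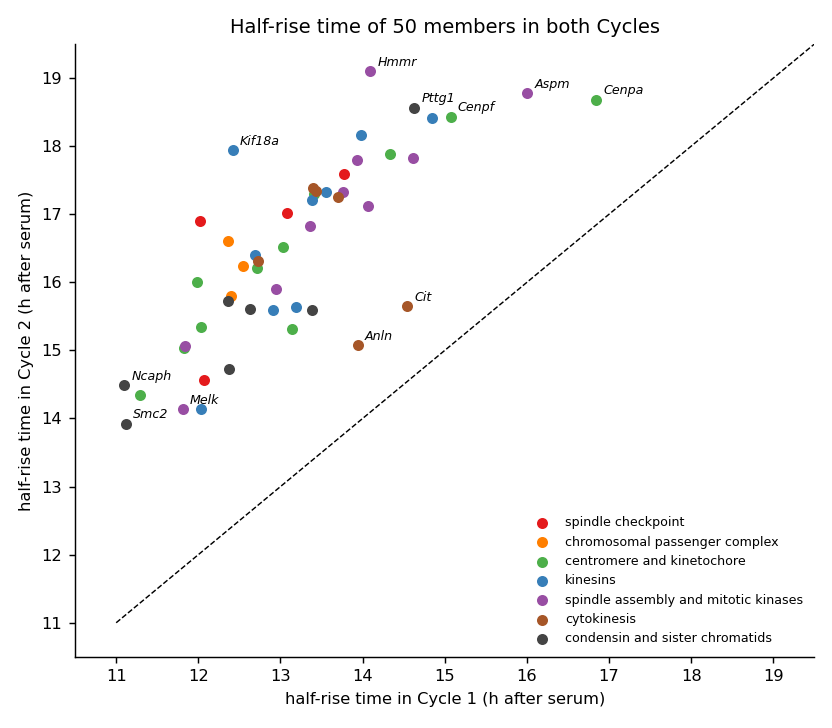
Half-rise time in Cycle 2 against that in Cycle 1, in hours after serum, with a point for each of 50 members coloured by role and a dashed line of equal times. All 50 points lie above the line, from Smc2 and Ncaph at the lower left to Cenpa, Aspm and Hmmr at the top.

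DNA replication genes, taken as a list for comparison, rose before the mitotic genes, with a median half-rise time of 9.63 h in Cycle 1 (31 genes) and 11.1 h in Cycle 2 (24 genes). From 7 to 10 h to 11 to 14 h, 24 of these 31 genes were higher with both Cycles in the fit (8.27% of all genes). There 0 of the 54 members were called (0 by edgeR, 21 at an unadjusted p under 0.05). The median log2 changes were closer than these counts, with 0.77 for the replication genes and 0.63 for the members. Within Cycle 1 alone 46 members were higher at this step (5.80% of all genes), and within Cycle 2 alone 5 (4.64%). A second list held 77 other spindle and kinetochore genes, of which 76 were in the table. From 7 to 10 h to 19 to 23 h, 70 of them were higher (25.6% of all genes) and 1 lower (22.2%), with a median log2 change of 1.53. In Cycle 2, 55 of 76 rose less (3.62% of all genes). Their median half-rise times were 12.2 h in Cycle 1 (71 genes) and 15.1 h in Cycle 2 (42 genes).

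**Figure D5:**
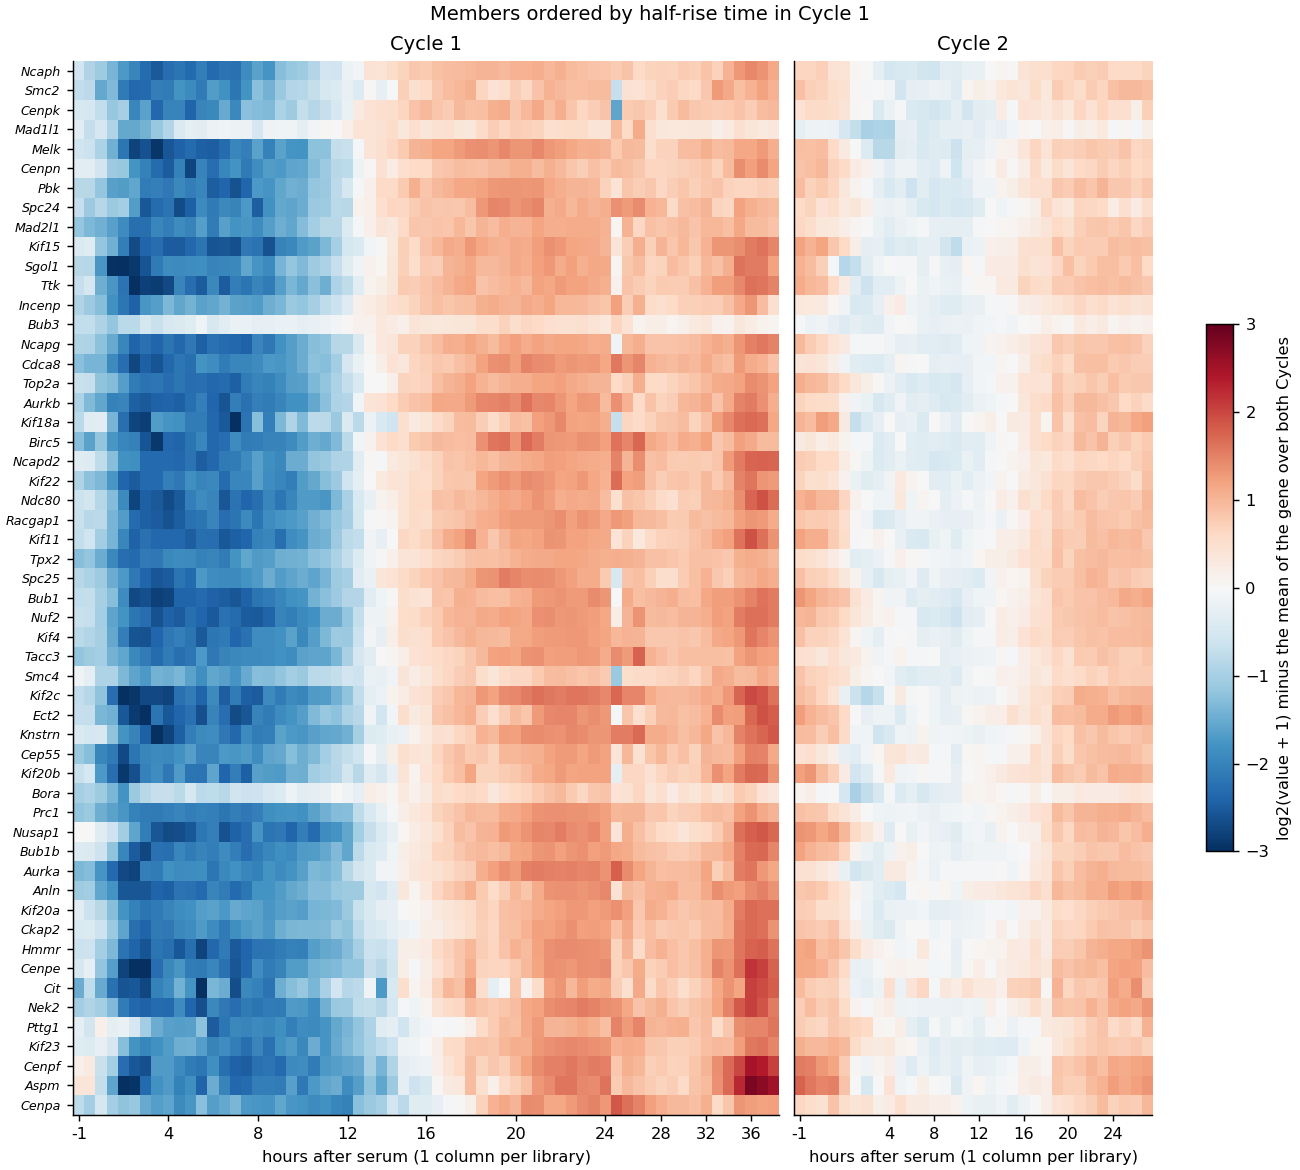
Log2(value + 1) of each member minus its mean over both Cycles, with a row for each member ordered by half-rise time in Cycle 1 and a column for each library. Rows turn from blue to red between about 11.1 h (Ncaph, top) and 16.8 h (Cenpa, bottom) in Cycle 1, the starved columns are red in most rows of Cycle 2 and blue in most rows of Cycle 1, and the last columns of Cycle 1 are darkest in rows such as Aspm and Cenpf.

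Between the rise and the end of the shared hours no step was called. From 19 to 23 h to 24 to 27 h, 0 of 54 members passed the limma test (0.157% of all genes in either direction), with 0 at an unadjusted p under 0.05 and 0 by edgeR, and the median log2 change was -0.04 (-0.03 over all genes). The medians of the Cycles had opposite signs, with -0.16 in Cycle 1, where 8 of 54 members were above 0, and 0.07 in Cycle 2, where 41 were. Within either Cycle 0 members passed the limma test, with 5 lower in Cycle 1 and 5 higher in Cycle 2 at an unadjusted p under 0.05. Taken over all hours that both Cycles share, 52 of 54 members changed at some hour against starved cells (F test in limma, adjusted p under 0.05 and a log2 change over 1 in size), as did 52.5% of all genes. At the hour of their largest change 16 of these were above and 36 below the starved level. Bub3 and Mad1l1 were the others, with a largest log2 change of 0.88 and 0.91.

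Against starved cells, the level at 24 to 27 h gave different counts in the Cycles. In the fit with both Cycles 20 members were higher (24.8% of all genes). Within Cycle 1 it was 53 of 54 (24.9% of all genes), with Aspm as the exception (log2 change 0.69, adjusted p 0.164), and within Cycle 2 it was 5 (15.7%), which were Bub3, Birc5, Aurka, Tpx2 and Cep55. The level at 24 to 27 h was a median of 3.04 times the starved level in Cycle 1, from 1.66 to 7.23, and of 1.00 in Cycle 2, from 0.737 to 1.39. The difference between the Cycles in this change, an added test, was called lower in Cycle 2 for 52 of 54 members, against 10.7% of all genes, with a median of -1.67 (0.10 over all genes). Kif18a (-1.21, adjusted p 0.121) and Aspm (-1.13, adjusted p 0.144) were the others.

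Leaving out starved libraries of Cycle 1 moved the pooled count. Without the -1 h library of Cycle 1 it was 10, and without its 0 h library it was 9. Birc5 was among the 20 called, and at 24 to 27 h it held 1637, 1925, 2277 and 1541 in Cycle 1 and 1148, 1224, 1106 and 1193 in Cycle 2, against starved values of 284 and 226, and of 840.4 and 893. Both Cycles were above their starved libraries, by unlike factors, and the pooled log2 change was 1.64 ± 0.49 (adjusted p 0.00428).

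Cycle 1 alone was followed beyond 27 h. From 24 to 27 h to 28 to 33 h, 2 members were lower (3.25% of all genes), Cenpa (log2 change -0.58, adjusted p 0.0454) and Mad1l1 (-0.40, adjusted p 0.039), and without the 24.5 h library 0 were lower. From 28 to 33 h to 34 to 38 h, 21 members were higher (19.7% of all genes), and 22 without the 24.5 h library. Without the library at 37 h it was 13. In an added comparison of 34 to 38 h with 24 to 27 h, 24 were higher (28.4% of all genes) and 17 without the 24.5 h library, and the median log2 change of the members was 0.44 (0.11 over all genes). A share of 24 in 54 lies nearer to the share of all genes than that of the first rise did.

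The members differed in this second rise. Aspm stood at 609.8, 332, 383, 354 and 331 at 24, 24.5, 25, 26 and 27 h and at 637, 934, 1386, 1286 and 1121 at 34 to 38 h. Cenpf stood at 884, 542, 651, 619.6 and 510.2 and then at 1009, 1252, 1717, 1626 and 1285. The late libraries of both lay above all the earlier ones, with log2 changes of 1.40 ± 0.29 (adjusted p 9.7e-05) and 1.10 ± 0.24 (adjusted p 0.000236), and Kif18a, a kinesin of chromosome alignment, gave 1.06 ± 0.31 (adjusted p 0.0041). Without the 24.5 h library these changes were 1.35 for Aspm (adjusted p 0.000539), 1.05 for Cenpf (adjusted p 0.0012) and 0.77 for Kif18a (adjusted p 0.042).

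Of the 7 genes of condensin and sister chromatids 5 were called higher (28.4% of all genes). Without the 24.5 h library 3 were called (Smc4, Ncapd2 and Ncaph). Smc4 and Ncaph were called either way, whereas Ncapd2 was called only without that library (log2 change 0.45 with it and 0.53 without it). Smc4 gave 0.77 ± 0.19 (adjusted p 0.000973) with that library and 0.43 ± 0.15 (adjusted p 0.0215) without it, so that 1 library moved it by more than 1.5 times. Smc2 gave 0.72 ± 0.21 (adjusted p 0.00344) with it and 0.46 ± 0.19 (adjusted p 0.0517) without it, and so was no longer called. Ncaph gave 0.51 with it and 0.52 without it.

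The chromosomal passenger complex had 0 of its 4 genes called by limma in this comparison, and 0 at an unadjusted p under 0.05. Birc5 held 1637, 2136, 1925, 2277 and 1541 at 24 to 27 h with the 24.5 h library included, and 1313, 1628, 1532, 1346 and 1341 at 34 to 38 h, partly within and partly below the earlier range (log2 change -0.40 ± 0.24, adjusted p 0.172, and -0.35 without the 24.5 h library). Mad1l1 was the member called in the other direction, with 554.5, 827, 649.5, 924 and 592.5 at 24 to 27 h and 512.5, 591.5, 545, 523 and 537 at 34 to 38 h (-0.36 ± 0.13, adjusted p 0.0232), and it was not called without the 24.5 h library (-0.30 ± 0.14, adjusted p 0.0846). Cenpa, the latest of the members to rise at first, gave -0.34 ± 0.20 (adjusted p 0.156), and -0.25 without that library. DNA replication genes had 3 of 31 higher and 3 lower (28.4% and 16.4% of all genes).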

How the data were processed

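RNA was measured by polyA-selected, stranded, single-end RNA-seq. The authors demultiplexed reads with CASAVA, aligned them to mm9 with STAR and counted exonic reads on both strands with HOMER, so reads from a gene and an antisense transcript cannot be told apart. The deposited table holds this signal per gene, normalized by the authors to 10000000 reads per library. Its rows average several transcripts for 12 members. Of 96 value columns, 95 were matched to a library by name and 1 was not used, because its name did not match the label of the 12.5 h library of Cycle 1, which was left out. Low values were multiples of 1 read (94.2% to 96.2% came out whole within 0.1), which gave the depth of each library.

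The main test used limma 3.58.1 (R 4.3.3) on log2(value + 1) over hours that both Cycles share, with Cycle as the replicate block and windows of hours as contrasts. Each window change is on that scale, and no filter on low values was added here. In the deposited table the highest value of a gene was never below 3.969, and shares of all genes are over the genes of that table. P-values were adjusted by Benjamini-Hochberg over 15895 genes, with a threshold of 0.05. The same number names a library of each Cycle at each shared hour, and over 406 pairs of hours the deviations of same-numbered libraries had a median correlation of 0.442 (-0.04 to 0.818). Cycle was therefore kept as a block. Contrasts within a Cycle, hours after 27 h (Cycle 1, with its libraries between whole hours), and differences between Cycles were fitted on the same scale. As an alternative, edgeR 4.0.16 was run on the recovered reads for all but the fits within a Cycle. Half-rise times used a mean over 3 neighbouring libraries and needed a rise over 1 on the log2 scale. Scripts were tested on simulated data. Python 3.11.15, numpy 2.4.6, pandas 2.3.3 and matplotlib 3.10.9 were used.

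The members, comparison lists and tests were chosen with earlier results of these data known. Genes are named by a rule: in each role group, those with the largest and smallest rise from 7 to 10 h to 19 to 23 h and the highest mean level, those called against the direction of most, and the earliest and latest to rise. Other members are named because of their values. Levels are not scaled by length and are not compared between genes. Promoters came from RefSeq, and none were matched for Aurkb, Incenp, Spc24, Kif20a, Tpx2, Bora, Pbk and Smc4.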

Additional observations from a re-analysis of the deposited data

Results flagged for a closer look

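The difference between the Cycles in the change from 7 to 10 h to 19 to 23 h passed the test for 53 members (limma, adjusted p under 0.05). All 53 rose less in Cycle 2, against 3.62% of all genes called in that direction. The difference in the change from starved cells to 24 to 27 h passed it for 52, all lower in Cycle 2, against 10.7% of all genes. A difference between 2 time courses in the same contrast is what marked these results. Among the genes named by the rule, Kif2c gave the largest difference in the rise, with a log2 value of -2.58 (adjusted p 7.62e-08), followed by Hmmr with -2.48 (adjusted p 1.57e-06), Cenpa with -2.37 (adjusted p 1.71e-07) and Nusap1 with -2.36 (adjusted p 2.59e-07). Kif2c, Hmmr and Nusap1 encode microtubule-binding proteins, and Cenpa the centromeric histone.

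Differences close to these were found for Birc5 (-2.14), Nuf2 (-2.10), Cenpe (-2.10), Aurkb (-2.09), Bub1 (-2.08), Cit (-2.02) and Ect2 (-2.0). It was -1.88 for Top2a and for Anln, -1.81 for Kif20a, -1.71 for Tpx2 and -1.68 for Incenp. Smaller differences were found for Ncaph (-1.42), Smc2 (-1.20) and Smc4 (-1.13) of condensin and for Cenpk (-1.23) of the centromere. Bora (-0.60) and Bub3 (-0.38) had the smallest differences among the named genes that passed the test.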

How the results depend on the processing

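All 54 members stayed higher at 19 to 23 h than at 7 to 10 h under every alternative run for that comparison. Of 212 alternative values of the main counts and times 173 stayed close to the main value and 39 moved. Close meant within 1.5 times for a count and within a fixed number of hours for a time. Counts were taken in the main direction only, so they cannot show a change of sign. Of 552 values for single named genes 503 were on the same side of the threshold, 22 were weaker and 19 stronger, and no called value changed sign. The other 8 were changes at 24 to 27 h against starved cells, uncalled with both Cycles in the fit, that turned from above to below 0 in Cycle 2 alone (from -0.37 for Nusap1 to -0.01 for Cenpe). Without the replicate block, 19 members were lower at 4 to 6 h, 15 were lower at 7 to 10 h and 9 were higher at 24 to 27 h than in starved cells. The step to 11 to 14 h gave 1 member with a minimum mean value of 10 and 2 with a trend in the prior variance. With windows over all libraries, those between whole hours included, the steps gave 47 members at 11 to 14 h, 51 at 15 to 18 h and 9 at 19 to 23 h, and 31 were higher at 24 to 27 h than in starved cells. By edgeR the latter steps gave 1 and 2. Shares of all genes called were not computed for windows over all libraries or for edgeR. With a change over 1 on the log2 scale also required, 0 members were lower at 28 to 33 h, 3 were higher at 34 to 38 h than at 28 to 33 h, 3 were higher than at 24 to 27 h, and 0 were lower in Cycle 2 at 19 to 23 h or at 24 to 27 h. With the midpoint on the linear scale the median half-rise time was 15.3 h in Cycle 1 and 17.3 h in Cycle 2, and the median delay shrank from 3.43 h to 1.85 h.

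Leaving out a library or a Cycle gave 25 to 49 members lower at 4 to 6 h, 19 to 50 lower at 7 to 10 h and 31 to 45 lower at some shared hour. The steps gave 5 to 46 (11 to 14 h), 0 to 52 (15 to 18 h) and 3 to 17 (19 to 23 h), and 5 to 53 were higher at 24 to 27 h than in starved cells. In the late hours of Cycle 1 it gave 0 to 2 lower at 28 to 33 h, 13 to 27 higher at 34 to 38 h than at 28 to 33 h, and 17 to 26 higher than at 24 to 27 h. The count at 7 to 10 h was 19 without either starved library of Cycle 2.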

Other observations

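Other gene groups gave values beside those of the mitotic genes. The 31 DNA replication genes had 28 higher at 24 to 27 h than in starved cells with both Cycles in the fit (24.8% of all genes). Their change from starved cells to 24 to 27 h was smaller in Cycle 2 for 30 of 31 (median log2 difference -1.45). From 7 to 10 h to 19 to 23 h, 7 of them rose less and 1 more in Cycle 2 (3.62% and 1.93% of all genes), with a median difference of -0.37. The median hour of the highest value was 16.0 h in Cycle 1 and 18.0 h in Cycle 2 for these genes, and 22.0 h and 25.0 h for the mitotic genes. At 34 to 38 h of Cycle 1, 34 of 76 other spindle and kinetochore genes were higher and 3 lower than at 24 to 27 h. In the same comparison 3 of 5 epithelial markers were lower, and 5 of 8 fibroblast markers were higher and 2 lower. Of all genes, 28.4% were higher and 16.4% lower there.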
